A study of Mus musculus with 3 samples.

Results

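Eicosanoids are short-lived lipid signals made from arachidonic acid, and 65 genes of this pathway were read in the mouse distal colon. They were chosen by a rule on symbols, written with earlier results of these data known. It took the phospholipase A2 genes whose symbols begin with Pla2g, the prostaglandin and thromboxane synthases, and the lipoxygenases and leukotriene enzymes. Also taken were the enzymes that inactivate the products, and the receptors. Phospholipase A2 genes under other symbols were not covered. The 65 symbols are among 24346 listed, and they were grouped by role into 22 for release, 22 for synthesis, 7 for breakdown and 14 for receptors. The tissue was the distal colon of wild-type mice, 8 weeks old and at steady state, rinsed and frozen before extraction, with the strain given as JAX, which names a supplier and not an inbred line. The polyadenylated RNA is represented by 3 files, deposited as replicates of 1 group, with no treatment, mutant or other control. The file names carry the same sample number, index and lane and differ only in their last number, so the files may hold reads of 1 library, and nothing in the labels says that they came from separate libraries or animals.

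In this pathway a phospholipase A2 frees arachidonic acid from membrane lipids. Cyclooxygenases turn it into prostaglandin H2, from which separate synthases make prostaglandins E2, D2 and I2 and thromboxane, while lipoxygenases open the route to leukotrienes. The products act close to where they are made, on receptors coupled to G proteins, and are then taken up and oxidised. In the gut, prostaglandin E2 is known for its part in mucus secretion, epithelial repair and motility, and its main inactivating enzyme is known to be abundant in colonic epithelium.

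Levels are FPKM, fragments scaled to a transcript length of 1000 bases and to the number of mapped fragments, summed over the isoforms of a gene, so that genes can be compared per length. By the confidence bounds in the files, replicates 1, 2 and 3 had about 3.78e+06, 3.79e+06 and 1.24e+06 mapped fragments. Among the 8771 single-isoform genes whose mean was 1 FPKM or more, 7 (0.0798%) differed between the files by a chi-square test against counting error with Benjamini-Hochberg adjustment, and none of the 26 pathway genes tested was among them. At an unadjusted p under 0.05 the count for these 26 was also 0, beside 435 of the 8771 (4.96%). With 26 genes, this 0 does not set the pathway apart. The files were therefore counted as 1 sample, and each ± below is the SD over the 3 files, a measurement error that holds no spread between animals. The labelled tissue was read on marker lists chosen with earlier results of these data known. All 10 epithelial, 7 smooth muscle, 7 fibroblast, 10 macrophage and 6 endothelial markers reached 1 FPKM in every file. This is a weak check, since 48.5% of all symbols did so too. Of 10 pancreas acinar markers 1 did, Cela1 at 175 ± 6.57 FPKM. In tissue RNA of this kind, fewer cells of a type and less RNA per cell cannot be told apart.

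Of the 65 genes, 35 reached 1 FPKM in all 3 files, where 48.5% of all symbols did. Among symbols with a coding isoform the share was 34 of 62 pathway genes (54.8%) against 55.9% of all, so the pathway as a whole was not set apart by this count. A mean of 10 FPKM or more was reached by 11 of the 65, beside 23.3% of all symbols, and 9 were listed at 0 in every file, beside 29.9%. The median of the 65 means was 2.39 FPKM, against 1.25 FPKM over all symbols and 4.78 FPKM over those above 0. The roles were unequal. Those that reached 1 FPKM in all 3 files were 13 of the 22 release genes, 12 of the 22 synthesis genes, 6 of the 7 breakdown genes and 4 of the 14 receptors, which is 59.1%, 54.5%, 85.7% and 28.6%. The median levels had the same order, 9.66 FPKM for breakdown, 2.83 FPKM for release, 2.32 FPKM for synthesis and 0.468 FPKM for receptors. The 14 receptor genes, grouped by symbol, include Ptgfrn, which does not encode a receptor and is among the 4. Release and synthesis also hold noncoding genes. Of the coding ones, 12 of 21 release genes (57.1%) and 12 of 20 synthesis genes (60.0%) reached 1 FPKM in all 3 files. The order of these roles by share thus rested on the noncoding genes.

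In each role 1 gene held a large part of the summed level. Hpgd held 69.1% ± 1.91 of the breakdown sum of 196 ± 4.21 FPKM, and Pla2g10 held 39.6% ± 1.46 of the release sum of 163 ± 11.0 FPKM. Without the noncoding Pla2g10os the release sum was 152 ± 4.19 FPKM, and Pla2g10 held 42.4% ± 2.63 of it. Ptges3 held 41.9% ± 2.54 of the synthesis sum of 175 ± 5.16 FPKM, and Ptgfrn held 44.9% ± 0.716 of the receptor sum of 51.4 ± 1.83 FPKM. Ptgfrn is grouped there by its symbol and does not encode a receptor. Highest of the genes that do was Ptger4, at 11.0 ± 1.52 FPKM. The 7 breakdown genes thus summed to more than the 22 synthesis genes in every file.

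**Figure D1:**
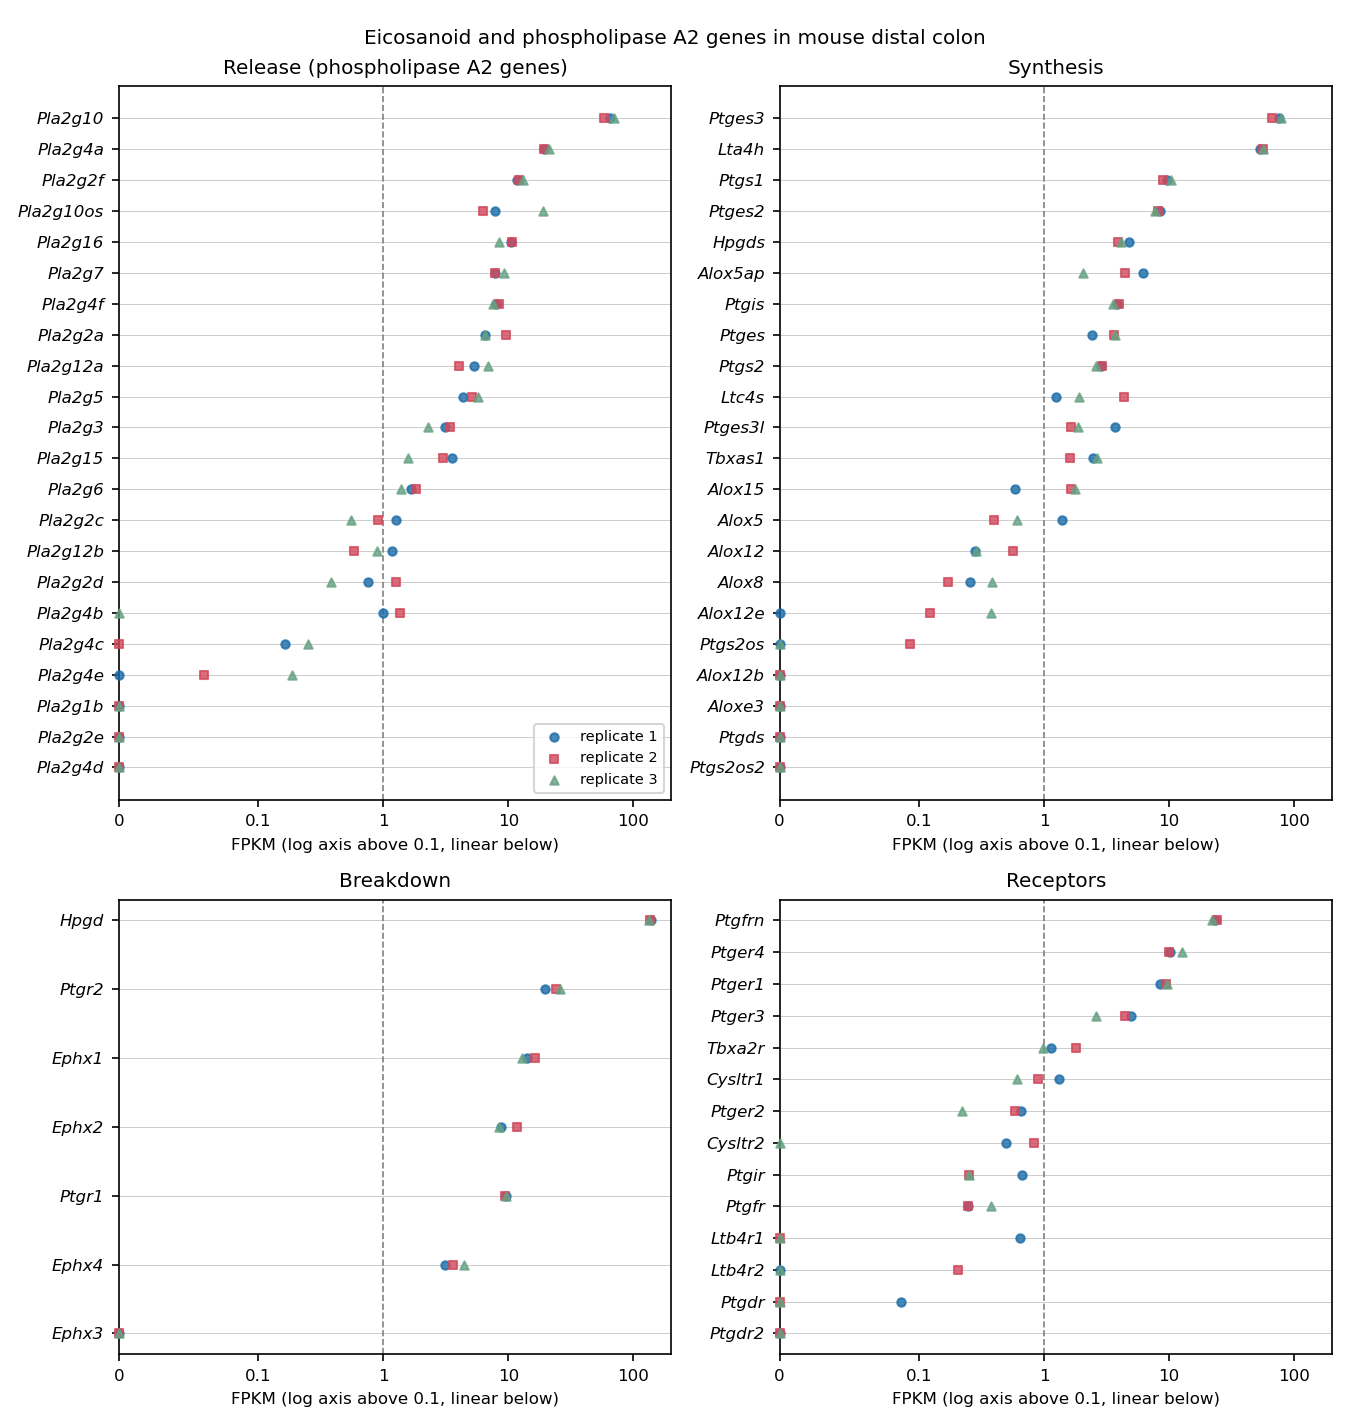
Summed FPKM of each of the 65 genes in each of the 3 files, by role, on an axis that is logarithmic above 0.1 and linear below it; the dashed line marks 1 FPKM. Hpgd lies at 134 to 137 FPKM, apart from the other breakdown genes, and most receptor genes lie to the left of the line.

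The promoters of 6 starts are shown first, because they belong to the genes on which the levels below turn: the cytosolic phospholipase Pla2g4a with its pair of starts, the cyclooxygenases, the inactivating enzyme and the leading prostaglandin E2 receptor. Each is the 100 bases that precede a transcription start in RefSeq on GRCm38.p6, written 5′ to 3′ on the gene's strand. Capitals mark the GC box GGGCGG or its reverse complement CCGCCC.
Pla2g4a upstream start (chr1:149961291-149961390, minus strand): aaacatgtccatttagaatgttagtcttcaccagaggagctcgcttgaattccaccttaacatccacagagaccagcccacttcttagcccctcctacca
Pla2g4a downstream start (chr1:149922440-149922539, minus strand): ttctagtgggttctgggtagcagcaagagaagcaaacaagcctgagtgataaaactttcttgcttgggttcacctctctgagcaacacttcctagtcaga
Ptgs1 (chr2:36230326-36230425, plus strand): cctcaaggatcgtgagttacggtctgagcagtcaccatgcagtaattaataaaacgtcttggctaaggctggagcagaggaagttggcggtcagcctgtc
Ptgs2 (chr1:150099931-150100030, plus strand): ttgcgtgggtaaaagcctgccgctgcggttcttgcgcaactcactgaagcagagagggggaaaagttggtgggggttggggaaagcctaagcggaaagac
Hpgd (chr8:56294452-56294551, plus strand): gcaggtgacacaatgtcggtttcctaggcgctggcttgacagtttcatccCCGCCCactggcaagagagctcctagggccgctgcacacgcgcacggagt
Ptger4 (chr15:5244188-5244287, minus strand): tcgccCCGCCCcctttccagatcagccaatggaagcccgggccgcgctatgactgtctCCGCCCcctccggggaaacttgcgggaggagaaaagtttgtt
The window of Ptger4 holds 2 GC boxes and that of Hpgd holds 1, and the windows of Pla2g4a, Ptgs1 and Ptgs2 hold none. The start that RefSeq gives for Ptgs2 lies 93 bases before the one in the files, and the other 5 starts are the same base in both. RefSeq promoters were found for 52 of the 65 genes, 57 windows in all. GGGCGG, searched on both strands, was in 21 of the 57 (36.8%), beside 24.7% of all 32851 windows of that length. TATAAA, the core of the TATA box, was in 2 of the 57 (3.51%), those of Pla2g4d and Tbxas1, beside 5.56% of all windows. These are matches of letters and no measure of binding.

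Release was led by Pla2g10, which encodes a secreted phospholipase A2 that acts readily on phosphatidylcholine. Its level was 65.0, 58.6 and 70.0 FPKM (mean 64.5 ± 5.73), from about 683 fragments, and it ranked 1000 among the 24346 symbols. Pla2g4a, which encodes the calcium-dependent cytosolic enzyme with a preference for arachidonic acid, stood at 19.4, 19.2 and 21.2 FPKM (mean 19.9 ± 1.15). Pla2g10 exceeded Pla2g4a by 3.36, 3.06 and 3.30 times in the 3 files, and no value of either came near the other. Pla2g2f, another secreted enzyme, followed at 11.7, 12.2 and 13.1 FPKM (mean 12.3 ± 0.680), below Pla2g4a in every file. These 3 genes had separate ranges; from Pla2g2f down to Pla2g5 each gene's range overlapped that of the next, so neighbours in that order did not differ beyond their spread.

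In that middle range, Pla2g16, which encodes a small phospholipase and acyltransferase known from fat tissue, gave 10.5, 10.6 and 8.38 FPKM. Pla2g7, the enzyme that inactivates platelet-activating factor in plasma, gave 7.85, 7.85 and 9.18 FPKM. Pla2g4f, a cytosolic relative of Pla2g4a, gave 8.04, 8.39 and 7.60 FPKM. Pla2g16 exceeded Pla2g4f in every file, while Pla2g7 was the lowest of the 3 in replicates 1 and 2 and the highest in replicate 3. Pla2g2a, a secreted enzyme known for killing bacteria, gave 6.48, 9.53 and 6.57 FPKM. Some laboratory strains carry a disrupted copy of this gene, and the tables, which hold levels and no sequence, do not show which form these mice had. Pla2g12a and Pla2g5, both secreted, averaged 5.41 ± 1.45 and 5.08 ± 0.696 FPKM.

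Of the release genes lower still, Pla2g3, a secreted enzyme, gave 3.12, 3.44 and 2.29 FPKM, and 15.4% of its transcript lies opposite Inpp5j, a gene at 19.9 FPKM. Pla2g15, the lysosomal enzyme, gave 3.54, 3.01 and 1.58 FPKM. Pla2g6, the calcium-independent enzyme, gave 1.67, 1.82 and 1.39 FPKM and lay above the next gene down, Pla2g2c, in every file. Pla2g2c, Pla2g12b, Pla2g2d and Pla2g4b had files on both sides of 1 FPKM, and Pla2g4c and Pla2g4e averaged 0.138 and 0.0826 FPKM. Pla2g1b, the pancreatic digestive enzyme, Pla2g2e and Pla2g4d were listed at 0 in every file. At this depth, 3 fragments over the 3 files would give 0.957 FPKM for the short transcript of Pla2g1b, 0.520 FPKM for Pla2g2e and 0.110 FPKM for Pla2g4d. Levels below these limits could have been missed. These limits, and the fragment numbers, cover counting error only.

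The noncoding Pla2g10os, whose symbol marks it as the opposite-strand gene and which overlaps Pla2g10 by position, was listed at 7.81, 6.33 and 19.0 FPKM (mean 11.0 ± 6.94). The high value is that of the shallow replicate 3. All 3 values rest on about 10.3 fragments, because the transcript is short, and without replicate 3 the mean was 7.07 FPKM. The sources used here do not state whether counting used strand, so reads of Pla2g10 and Pla2g10os cannot be told apart with certainty. Without strand the same limit holds for every overlapping pair named here.

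Neighbouring release genes had unlike levels. The 6 secreted phospholipase genes Pla2g2c, Pla2g2f, Pla2g2d, Pla2g5, Pla2g2a and Pla2g2e lie within 157 kb on chromosome 4 (chr4:138725325-138882814, GRCm38). Pla2g2f stood at a mean of 12.3 FPKM, Pla2g2c and Pla2g2d, on either side of it, at 0.911 and 0.799 FPKM, and Pla2g2e at 0. The range of Pla2g2f overlapped that of no other gene in this stretch. On chromosome 2 the cytosolic genes Pla2g4b, Pla2g4e, Pla2g4d and Pla2g4f share 281 kb (chr2:120033433-120314165). Pla2g4f stood at 8.01 ± 0.394 FPKM, while Pla2g4e, which lies between Pla2g4b and Pla2g4d, reached 0.186 FPKM at most.

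**Figure D2:**
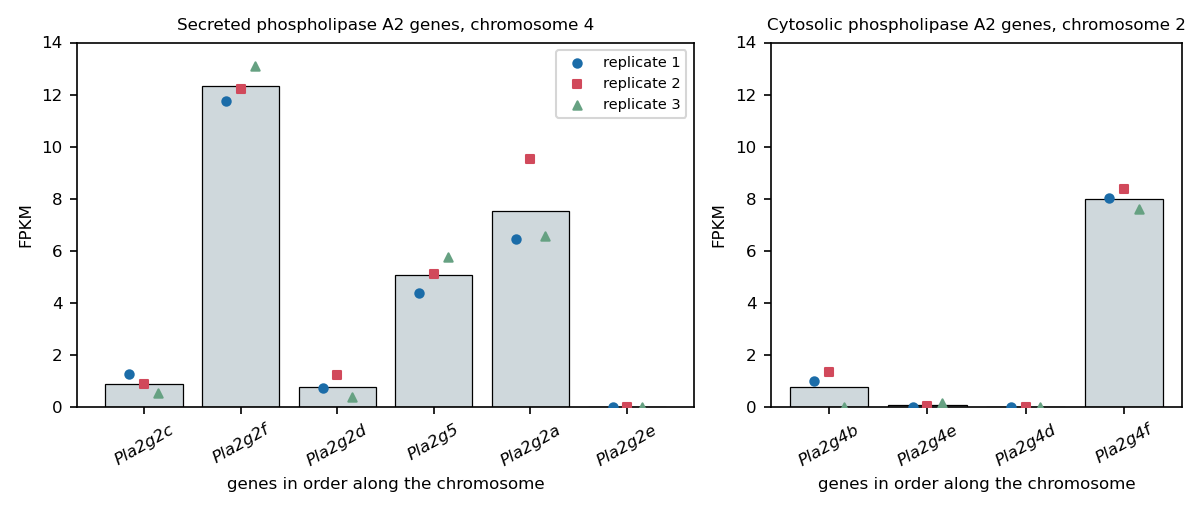
FPKM of neighbouring phospholipase A2 genes in chromosomal order, with the mean as a bar and each file as a point; the left panel holds 6 genes of chromosome 4 and the right panel 4 genes of chromosome 2. Pla2g2f and Pla2g4f are the highest of their panels, beside neighbours under 2 FPKM or listed at 0.

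Pla2g4b shows how overlapping annotation moves a level. It was listed at 1.00, 1.36 and 0.000148 FPKM, while Gm28042, a longer annotated gene on the same strand that shares 75.2% of its transcript, was listed at 6.98e-05, 0.000962 and 0.979 FPKM. Replicate 3 thus has the level under Gm28042 and the other files have it under Pla2g4b. The sum of both was 1.00, 1.36 and 0.979 FPKM, with no file standing apart.

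In the synthesis of prostaglandins, the constitutive cyclooxygenase Ptgs1 stood above the inducible Ptgs2. Ptgs1 was at 9.59, 8.998 and 10.4 FPKM (mean 9.67 ± 0.711), from about 222 fragments. Ptgs2 was at 2.86, 2.92 and 2.63 FPKM (mean 2.80 ± 0.155), from about 99.2 fragments. The ratio of Ptgs1 to Ptgs2 was 3.36, 3.08 and 3.97, and the ranges did not overlap. Ptgs2 lies 139 kb from Pla2g4a on chromosome 1, and Pla2g4a, at 19.9 FPKM, exceeded it in every file. The noncoding genes on either side of Ptgs2 were near or at 0: Ptgs2os was above 0 in 1 file, at 0.0934 FPKM, and Ptgs2os2 was listed at 0 in every file, with a limit of 0.220 FPKM.

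Among the prostaglandin E synthase genes the order was Ptges3, Ptges2, Ptges. Ptges3, whose product is also the p23 co-chaperone of Hsp90, was at 75.5, 66.01 and 78.6 FPKM (mean 73.3 ± 6.55). Its longest match to the pseudogene Ptges3-ps was exact over 480 bases, 24.0% of the transcript matched, so part of its level is uncertain. Ptges2, a membrane-associated form, was at 8.43, 8.13 and 7.64 FPKM. Ptges, the inducible microsomal form that works with Ptgs2, was at 2.43, 3.64 and 3.69 FPKM. Ptges2 exceeded Ptges by 3.47, 2.23 and 2.07 times, while the ranges of Ptges and Ptgs2 overlapped. Ptges3l, a relative of the co-chaperone, gave 3.67, 1.63 and 1.86 FPKM from about 28.3 fragments, and it overlaps Rundc1, at 6.67 FPKM. It also matches Gm27029, which overlaps it on the same strand, over 37.7% of the transcript matched. Its level is therefore uncertain.

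The terminal synthases of the other prostanoids were low and near each other. Hpgds, the haematopoietic prostaglandin D synthase, was at 4.81, 3.88 and 4.10 FPKM, while Ptgds, the lipocalin-type enzyme for the same step, was listed at 0 in every file, with a limit of 0.559 FPKM. Ptgis, the prostacyclin synthase, was at 3.83, 3.998 and 3.54 FPKM. Tbxas1, the thromboxane synthase, was at 2.48, 1.60 and 2.66 FPKM. The range of Tbxas1 lay below those of Hpgds and Ptgis, which overlapped.

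Leukotriene genes were uneven along the route. Lta4h, whose product makes leukotriene B4 and also cuts peptides, was at 53.0, 56.3 and 56.2 FPKM (mean 55.1 ± 1.90), from about 903 fragments. Alox5, the lipoxygenase that begins the route, was at 1.39, 0.397 and 0.604 FPKM (mean 0.797 ± 0.524), from about 19.8 fragments. Lta4h was therefore 38.1, 142 and 93.1 times Alox5, a ratio whose denominator rests on few fragments. Alox5ap, which presents arachidonic acid to that lipoxygenase, was at 6.21, 4.42 and 2.06 FPKM. Ltc4s, the leukotriene C4 synthase, was at 1.24, 4.37 and 1.89 FPKM from about 9.25 fragments, and its mean of 2.50 FPKM became 1.57 FPKM without replicate 2. Of its transcript, 26.9% lies opposite Gm26542. Lta4h stood 12.9 to 42.6 times above Ltc4s.

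The other lipoxygenases were at or near the bottom of the scale. Alox15, whose product oxygenates arachidonic and linoleic acid, was at 0.587, 1.64 and 1.79 FPKM. Alox12, the platelet-type enzyme, Alox8 and the epidermal Alox12e averaged 0.375, 0.271 and 0.166 FPKM. Alox12b and Aloxe3, which build the lipid barrier of the skin, were listed at 0 in every file, with limits of 0.158 and 0.145 FPKM. Of 8 keratinocyte markers, 1 reached 1 FPKM in every file, Krt10 at 1.70 ± 0.410 FPKM. All 7 lipoxygenase genes thus had at least 1 file under 1 FPKM.

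Markers of cell types known for leukotriene and thromboxane synthesis were read in the same files. All 10 macrophage markers reached 1 FPKM in every file, among them Lyz2 at 125 ± 4.26 FPKM and C1qa at 30.8 ± 2.39 FPKM, with a list sum of 231 to 248 FPKM. Of 9 neutrophil and eosinophil markers none reached 1 FPKM in any file, the list summed to 0.118 to 1.23 FPKM, and S100a8, S100a9, Mpo and Epx were listed at 0. Of 10 mast cell markers 2 reached 1 FPKM in every file, Cma1 at 5.24 ± 1.78 FPKM and Kit at 8.99 ± 0.532 FPKM, and Mcpt4, Ms4a2 and Fcer1a were at 0, with a list sum of 13.5 to 16.3 FPKM. Of 5 platelet markers Pf4 reached it, at 15.4 ± 1.41 FPKM, and Ppbp and Gp9 were at 0, with a list sum of 14.6 to 17.3 FPKM. Tuft cell markers, given because this cell type is known to express Ptgs1, Alox5 and Hpgds, reached 1 FPKM in every file in 1 of 9 cases, Dclk1, with Il25 at 0 and a list sum of 7.31 to 9.28 FPKM. The part of each cell type in the levels of the pathway genes was not tested.

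Breakdown was led by Hpgd, the highest of the 65 genes. Its product, hydroxyprostaglandin dehydrogenase, oxidises prostaglandin E2 to an inactive keto form. Hpgd stood at 137, 135 and 134 FPKM (mean 135 ± 1.49), from about 1820 fragments, and ranked 448 among all symbols, above 98.2% of them. It was 14.3, 15.02 and 12.9 times the level of Ptgs1 and 6.20, 5.89 and 6.02 times that of Slco2a1, the transporter that brings prostaglandins into the cell. The SD of Hpgd over the files, 1.10% of its mean, was the smallest of the 19 genes with at least 100 fragments.

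The reductases that take the next step came well below. Ptgr2, which reduces the keto product, was at 19.8, 24.3 and 25.9 FPKM (mean 23.3 ± 3.13), and 59.9% of its transcript lies opposite Gm47484. Ptgr1, which reduces keto prostaglandins and also oxidises leukotriene B4, was at 9.67, 9.40 and 9.53 FPKM (mean 9.53 ± 0.137). Hpgd was 6.90, 5.57 and 5.18 times Ptgr2, and Ptgr1 lay below Ptgr2 in every file.

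The epoxide hydrolases convert epoxy fatty acids to diols. Ephx1, the microsomal form, which also acts on foreign compounds, was at 14.1, 16.4 and 12.9 FPKM. Ephx2, the soluble form, was at 8.77, 11.7 and 8.47 FPKM, and Ephx1 exceeded it by 1.61, 1.39 and 1.52 times. Their ranges did not overlap, while those of Ephx2 and Ptgr1 did. Ephx4, a less studied member of the family, was at 3.14, 3.63 and 4.41 FPKM, and Ephx3 was listed at 0 in every file, with a limit of 0.153 FPKM.

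Among the receptors, 3 of the 4 for prostaglandin E2, Ptger4, Ptger1 and Ptger3, stood above those for the other products, and Ptger2 was under 1 FPKM. Ptger4, which raises cyclic AMP, was at 10.2, 9.98 and 12.7 FPKM (mean 11.0 ± 1.52), from about 284 fragments. Ptger1, which signals through calcium, was listed at 8.41, 9.37 and 9.64 FPKM (mean 9.14 ± 0.648). Ptger4 exceeded Ptger1 by 1.21, 1.06 and 1.32 times. The level of Ptger1 is uncertain, since without strand its reads cannot be assigned to it alone, and so is its place beside Ptger4. Ptger3, which lowers cyclic AMP, was at 4.99, 4.42 and 2.60 FPKM, and Ptger2, which raises it, was at 0.660, 0.587 and 0.223 FPKM. The ranges of the 4 receptors did not overlap.

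The remaining prostanoid and leukotriene receptors lay near or below 1 FPKM. Tbxa2r, the thromboxane receptor, was at 1.13, 1.79 and 0.985 FPKM, and Cysltr1, a receptor for cysteinyl leukotrienes, was at 1.32, 0.902 and 0.609 FPKM. Cysltr2, the prostacyclin receptor Ptgir and the prostaglandin F receptor Ptgfr averaged 0.446, 0.390 and 0.292 FPKM. The leukotriene B4 receptors Ltb4r1 and Ltb4r2 were above 0 in 1 file each, at 0.646 and 0.207 FPKM. Of the prostaglandin D2 receptors, Ptgdr was above 0 in 1 file, at 0.0875 FPKM, and Ptgdr2 was listed at 0 in every file, with a limit of 0.139 FPKM. From Tbxa2r down, each range overlapped the next. Ptgfrn, caught by its symbol, is not a receptor but a membrane protein that restrains the prostaglandin F receptor. It stood at 23.3, 24.1 and 21.9 FPKM (mean 23.1 ± 1.12), from about 1154 fragments, while Ptgfr itself reached 0.378 FPKM at most.

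Of the 65 genes, 14 have several listed isoforms, and 11 of these have a mean of at least 1 FPKM. The isoform of highest level was not the same in every file in 5 of the 11, Alox5ap, Pla2g12a, Pla2g4a, Pla2g6 and Tbxa2r, where 37.9% of all such genes did the same. None of the 11 had a second isoform at 10% or more in every file, beside 22.6% of all such genes. In Pla2g4a the isoform from the upstream start held 99.99% of the gene in replicate 1, 85.1% in replicate 2 and 12.8% in replicate 3, while the gene's sum was 19.4, 19.2 and 21.2 FPKM. The files thus agree on the sum of Pla2g4a and not on which of the promoters printed above it came from. Of the Alox5ap isoforms, which share a start, the longer held 99.99%, 83.6% and 0.0592%. In Tbxa2r the shorter isoform held 99.98%, 7.10% and 99.9%. The leading isoform of Pla2g10, by contrast, held 95.9%, 96.3% and 97.7%, and that of Pla2g2a held 99.9%, 99.95% and 99.8%.

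**Figure D3:**
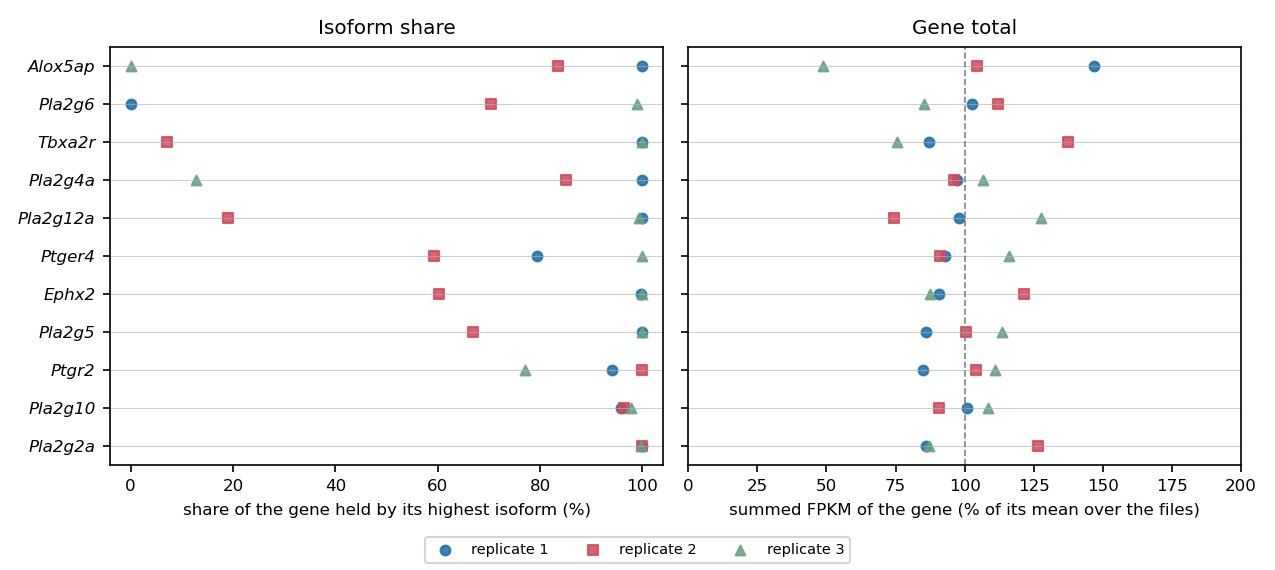
Left, the share of each gene held in each file by its isoform of highest mean, in percent, for the 11 genes with several isoforms and a mean of at least 1 FPKM; right, the summed FPKM of the same genes as a percentage of their mean over the files. For Pla2g4a the shares run from 12.8% to 99.99% while the sums lie close to the dashed line at 100%.

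The precision of these levels follows the number of fragments. In the 19 genes with at least 100 fragments the SD over the files was 1.10% to 18.7% of the mean, with a median of 7.36%. In 6 of these 19 it was larger than counting error alone would give, and the median ratio of observed to expected SD was 0.621. An SD over so few files often lies above its expected value by counting error alone. The 6 are therefore not shown to vary beyond it. Of the 56 genes above 0 in some file, 13 rest on fewer than 10 fragments, among them Ltc4s, Alox12 and Cysltr2. For these the files do not settle an order.

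**Figure D4:**
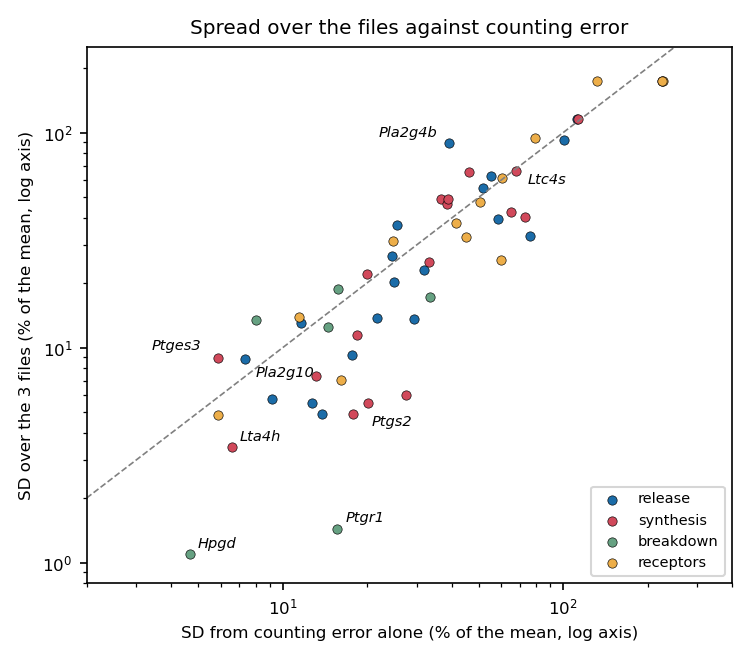
SD over the 3 files against the SD that counting error alone would give, both in percent of the mean on log axes, for the 56 genes above 0, coloured by role; the dashed line marks equality. Hpgd lies at the lower left, with an SD of 1.10%, and Pla2g4b, at 89.5% where counting alone would give 39.3%, lies farthest above the line.

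Of 80 further symbols of the pathway, 76 occur in the files and give the surroundings of these 65. The rest, Plaat1, Plaat3, Plaat5 and Prxl2b, may be listed under older symbols and are not shown to be absent. Such older symbols may already be counted among the 65 or the 76. Of the 76, 46 reached 1 FPKM in all 3 files, 21 were under 1 FPKM in every file, and 5 of those were listed at 0. Over all symbols, 48.5% reached 1 FPKM in all 3 files and 29.9% were listed at 0, and the counts below are to be read against these shares. Around release, 16 of 17 genes reached 1 FPKM in all 3 files. Highest was Anxa1, annexin A1, known as an inhibitor of phospholipase A2, at 142 ± 4.13 FPKM, and Mboat1, an enzyme that puts fatty acids back into lysophospholipids, at 115 ± 1.73 FPKM. Lpcat3, which does the same with arachidonic acid, and Abhd12, a lysophospholipid hydrolase, were at 22.5 ± 1.13 and 19.2 ± 2.01 FPKM. Both Anxa1 and Mboat1 stood above every Pla2g gene in every file.

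Around synthesis, 17 of 33 genes reached 1 FPKM in every file and 9 stayed under it. Mgst3 and Mgst1, microsomal glutathione transferases, led with 396 ± 9.40 and 150 ± 7.03 FPKM, followed by Cbr1, a carbonyl reductase that acts on prostaglandin E2, at 119 ± 7.54 FPKM and Gpx4, which reduces lipid peroxides, at 81.7 ± 4.22 FPKM. The list holds 26 cytochromes P450, of which 11 reached 1 FPKM in all 3 files and 9 were under it in every file, 2 of them at 0. Cyp2c55, Cyp2s1 and Cyp2c68, named after their values were seen, stood at 58.8 ± 3.33, 56.4 ± 4.44 and 39.8 ± 1.70 FPKM, while Cyp2c38, Cyp2c66 and Cyp2j5 were among the 9. Around transport and breakdown, 9 of 15 genes reached 1 FPKM in every file. Akr1c13, an aldo-keto reductase, stood at 87.5 ± 3.50 FPKM, Zadh2, a prostaglandin reductase, at 22.7 ± 4.72 FPKM, Slco2a1 at 22.4 ± 0.463 FPKM and the export pump Abcc3 at 20.004 ± 2.33 FPKM. Abcc2, Ggt1 and Dpep2 were under 1 FPKM in every file. Hpgd stood above all 15 of these genes in every file.

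Of 11 other receptors for fatty acids and their products, 4 reached 1 FPKM in every file. The nuclear receptors Ppard and Pparg, which bind fatty acids and their oxidised forms, stood at 40.1 ± 1.64 and 18.2 ± 1.79 FPKM, and Cmklr1 and Ppara at 1.82 ± 0.263 and 1.79 ± 0.573 FPKM. The surface receptors Gpr17, Oxgr1 and Gpr31b were under 1 FPKM in every file, the last 2 at 0. Ppard exceeded every one of the 14 receptor genes in every file.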

How the data were processed

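The RNA was taken up in TRIzol and its polyadenylated part sequenced from TruSeq RNA libraries, per the labels' protocols. Each deposited file lists isoforms with the FPKM values and 95% confidence bounds of the authors, per the file headers. A signal column of read coverage per isoform was also deposited and served only as a look at depth. The submitters' processing notes name TopHat2 2.1.1, Bowtie2 2.3.4.3 with Cufflinks 2.2.1. For strandedness and for reads with several matches, the settings were not given in the sources used. Those notes name GRCm39, but the positions are those of GRCm38: of 23104 symbols, 97.5% had a start or end within 1000 bases of the RefSeq gene on GRCm38.p6.

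FPKM were summed per gene symbol, and the levels printed were not rescaled. The squared standard error read from the bounds, divided by the FPKM, gave the FPKM worth of 1 fragment. In genes of 1 isoform over 800 bases with up to 30 such fragments, 64.1%, 64.2% and 64.3% of values in replicates 1, 2 and 3 lay within 0.01 of a whole number, and the slope of fragments per FPKM on length gave the depth. The fragments were not used as counts. The limit for a gene at 0 is 3 fragments over the 3 files. Spread between files was tested over all single-isoform genes whose mean was 1 FPKM or more by a chi-square test with these variances, after the files were scaled to a common median ratio, at an adjusted 0.05, and the procedure was tested on simulated data. Because 1 group was labelled, no conditions were compared.

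Named are all 65 genes and, of each list of other pathway genes, the 4 highest and up to 3 in list order under 1 FPKM in every file. The members and lists were chosen with earlier results of these data known. Roles follow the symbols, so Alox5ap and Ptgfrn count under synthesis and receptors. Matches of at least 100 bases at 97% identity to another gene's transcript in GENCODE M21 were sought with BLAST+ 2.17.0, and 20 of the 65 genes had one, 3 of them over more than 50% of the transcript. Each percentage is that of the longest match between the genes, so the whole shared part may be larger. Scripts ran in Python 3.11.15 with pandas 2.3.3 and SciPy 1.17.1. Alternatives were other thresholds of level, rescaling to a fixed sum (TPM), the highest isoform alone, coding isoforms alone, other filters and scalings in the test, and each replicate left out. A mean weighted by depth was added after seeing the data.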

Additional observations from a re-analysis of the deposited data

How the results depend on the processing

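The count of 35 genes at or above 1 FPKM in every file ran from 30 to 40 over the alternatives, and that of the other pathway genes, 46, from 41 to 52. No alternative form of the chi-square test called any of the pathway genes different between the files; at an unadjusted p under 0.05 it gave Ptges3 with all genes included, Alox5 with no filter on level, and Alox15 and Ptges3 without replicate 3. Taking a range of log2(FPKM + 1) above 1 in place of the test gave 4 of the 65 genes, Alox5ap, Ltc4s, Pla2g10os and Pla2g4b. Over all 24346 symbols the same rule gave 738, and it takes no account of counting error. The count of genes with a second isoform at 10% or more in every file, 0 with all files, ran from 0 to 1 with each replicate left out: it was Pla2g4a without replicate 1 and Ptger4 without replicate 3. Rescaling each file to a fixed sum (TPM) multiplied all levels by 2.33 to 2.35 and left ratios within a file as they were. No paired analysis was possible because the labels give 1 group, so no groups share replicate numbers. Depth limits the low genes most: replicate 3 has about 1.24e+06 mapped fragments, beside 3.78e+06 and 3.79e+06. A spread between animals cannot be given.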
